A study of Mus musculus with 12 samples.

Results

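The mitochondrial chromosome of the mouse carries 37 of the 49671 genes in these count files, chosen here by their chromosome (MT) alone. They are 13 protein-coding genes, 2 ribosomal RNA (rRNA) genes and 22 transfer RNA (tRNA) genes. Counts came from total RNA of NIH 3T3 cells, an immortalised mouse embryo fibroblast line, after depletion of ribosomal RNA. Cells received either a negative control siRNA or 1 siRNA against Lap2, which targets all isoforms of the Tmpo gene (lamina-associated polypeptide 2, a family of nuclear envelope and nucleoplasmic proteins). Each was harvested from 0.3% fetal bovine serum (FBS), a low-serum state, or after 45 min in 15% FBS. This gave 4 groups with 3 libraries each: control siRNA in 0.3% FBS, control siRNA in 15% FBS, Lap2 siRNA in 0.3% FBS and Lap2 siRNA in 15% FBS. With 1 siRNA sequence and 1 cell line, effects of that sequence other than loss of Lap2 cannot be told apart from loss of Lap2. Nothing in the sources says that replicates came from separate cultures, so p-values measure the spread between these libraries, which may be technical.

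Mitochondrial DNA is a small circle that is transcribed from both strands by its own RNA polymerase, Polrmt, with the help of Tfam and Tfb2m. Each strand gives a long precursor, and tRNAs lie between most of the other genes, so that cutting out the tRNAs releases the rRNAs and mRNAs. The mRNAs encode core subunits of respiratory complexes I (Nd genes), III (Cytb), IV (Co genes) and of the ATP synthase, complex V (Atp genes). All other subunits of these complexes are encoded in the nucleus. Pieces of mitochondrial DNA have also been copied into nuclear chromosomes, and a read that fits both places equally well cannot be assigned to 1 of them.

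Libraries held 18026298 to 26265253 counts over genes. Tmpo itself was counted at 2775, 2805 and 2885 TMM-scaled counts with control siRNA in 0.3% FBS and at 982, 1175 and 1093 with Lap2 siRNA. In 15% FBS it was counted at 3264, 3243 and 3019 with control siRNA and at 767, 745 and 607 with Lap2 siRNA, so that in both serum states every Lap2 siRNA library lay below every control library. By edgeR the log2 fold changes were -1.38 (adjusted p 8.73e-16) and -2.17 (3.77e-19). TMM scaling is the trimmed mean of M-values, which sets libraries to a common size from the bulk of genes, and the scaled counts refer to the mean scaled library size. Summed levels of 7 fibroblast markers were 36640 to 40971 CPM (counts scaled to 1000000 per library) with control siRNA and 26726 to 32517 with Lap2 siRNA, whereas 4 epithelial and 3 endothelial markers each summed to at most 1.151 CPM in any library, with Krt18 at 0 in all. Whether the lower fibroblast marker level bears on the results below was not tested. Lap2 siRNA replicate 1 in 0.3% FBS had the highest share of mitochondrial counts of all libraries, and results that rest on it are also given without it.

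The sequences that decide what can be counted on the mitochondrial chromosome are shown first. A block on chromosome 1 in mm10 (chr1:24611535-24616197, 4663 bases) holds 7 annotated nuclear copies of mitochondrial genes, and 3 pairs illustrate how close they are. Each pair gives 61 bases of the mitochondrial gene (MT:9459-9519, MT:8968-9028 and MT:6390-6450) and the aligned bases of the nuclear copy, 5′ to 3′ on the sense strand, from GENCODE M21 transcripts. Capitals mark a base that differs, and positions are counted from 1 at the first base of the mitochondrial gene. The mt-Nd3 gene (MT:9459-9806) and Gm28438 differed by T3C alone over 345 aligned bases, mt-Co3 (MT:8607-9390) and Gm28437 by no base over 783, and the last 483 bases of mt-Co1 (MT:5328-6872) and Gm29216 by A1066T alone.
mt-Nd3: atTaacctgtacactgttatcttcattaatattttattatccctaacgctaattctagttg
Gm28438: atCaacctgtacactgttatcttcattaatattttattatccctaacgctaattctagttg
mt-Co3: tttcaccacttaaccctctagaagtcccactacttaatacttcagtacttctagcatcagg
Gm28437: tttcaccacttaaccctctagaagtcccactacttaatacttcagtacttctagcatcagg
mt-Co1: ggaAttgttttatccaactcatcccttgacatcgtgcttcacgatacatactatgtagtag
Gm29216: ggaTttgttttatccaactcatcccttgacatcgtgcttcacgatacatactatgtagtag

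Levels of the mRNAs, given as CPM per kilobase of gene, spanned a wide range, and the 5 lowest were those whose sequence is nearly all shared with nuclear copies. The highest were mt-Co1 at 7945 ± 800 (SD, n = 12), mt-Cytb at 5502 ± 681, mt-Nd1 at 3861 ± 640 and mt-Nd2 at 3546 ± 552. They were followed by mt-Nd5 at 2214 ± 280, mt-Nd4 at 1329 ± 141 and mt-Atp8 at 1128 ± 146. The mRNAs mt-Co2, mt-Nd3, mt-Atp6, mt-Co3 and mt-Nd4l, which come from the same heavy-strand precursor, were counted at only 37.5, 27.5, 15.2, 3.56 and 0.098. Between 97.8% and 99.9% of the 75-base windows of these 5 genes were found unchanged in an annotated nuclear transcript. The share was 61.5% for mt-Nd4, 39.8% for mt-Co1, 5.71% for mt-Nd2 and 1.66% for mt-Nd5, and 0% for mt-Nd1, mt-Cytb, mt-Nd6, mt-Atp8 and both rRNAs. Alignment was by TopHat2 with default settings, and neither the read length nor how the counting step treated reads with several matches is given in the sources used here. The 5 low mRNAs are therefore uncertain as levels. The 7 nuclear copies on chromosome 1 had 0 to 73 counts per library, the highest being Gm28438.

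**Figure D1:**
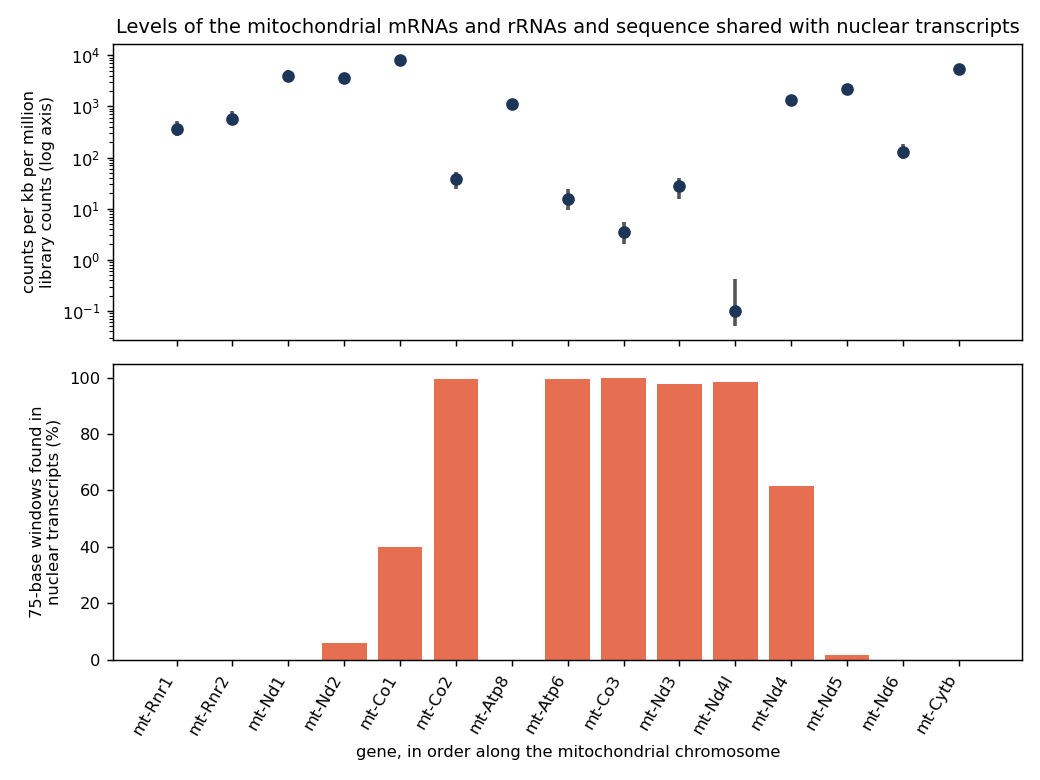
Upper panel: CPM per kilobase of gene (log axis) of the 13 mitochondrial mRNAs and 2 rRNAs in chromosomal order; points are means of 12 libraries and lines run from the lowest to the highest library, with a library at 0 drawn at 0.05. Lower panel: share of each gene's 75-base windows found in annotated nuclear transcripts. The 5 genes at 97.8% to 99.9% are the 5 lowest mRNAs.

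The order of these 15 genes was the same in every library: each gene stood above the next in 12 of 12. The gap was narrow between some neighbours, such as mt-Nd1 and mt-Nd2 or mt-Nd4 and mt-Atp8, whose ranges over libraries overlapped. Each neighbour comparison within a library is free of library scaling, but not of differences in how much of a gene can be counted. The pair mt-Atp8 and mt-Atp6 gives the values within 1 transcript. Both lie on the same bicistronic mRNA and overlap (MT:7766-7969 and MT:7927-8607). With 0% of windows in annotated nuclear transcripts, mt-Atp8 was counted at 1128 CPM per kilobase. For mt-Atp6, with 99.5%, the level was 15.2. That search took in no unannotated nuclear sequence. On the mitochondrial chromosome mt-Atp8 lies between mt-Co2 and mt-Atp6. Their copies Gm28661 (chr1:24614885-24615565) and Gm10925 (chr1:24613974-24614651) are neighbours in the chromosome 1 block. The 0% therefore does not show that mt-Atp8 lacks a nuclear copy. Whether shared sequence accounts for the difference in counts was not tested. The transcript of mt-Nd4 likewise holds mt-Nd4l, at 1329 against 0.098.

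The rRNAs mt-Rnr2 (16S, of the large mitochondrial ribosomal subunit) and mt-Rnr1 (12S, of the small subunit) stood at 576 ± 86.6 and 355 ± 65.1 CPM per kilobase, below 7 of the mRNAs. Both lie at the start of the heavy-strand precursor and are normally far more abundant than the mRNAs. The libraries had been depleted of ribosomal RNA, and whether mitochondrial rRNA was a target is not given in the sources used here. Values for the rRNAs come from libraries made after depletion, and whether depletion lowered them was not tested. The only mRNA of the light strand, mt-Nd6 (MT:13552-14070, a complex I subunit), was counted at 129 ± 23.0 CPM per kilobase. Its neighbour on the heavy strand, mt-Nd5, was at 2214.

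Of the 22 tRNA genes, 59 to 75 bases long, 10 had no count in any library, 8 had a mean between 0 and 10 counts, none of them above 10 in a library, and 4 had a mean of 10 or more. A count of 0 limits only what such libraries can show, since these protocols recover few fragments as short as a tRNA. The 4 counted best were mt-Tw (tryptophan; mean 73.2 counts), mt-Tp (proline; 32.7), mt-Tq (glutamine; 19.8) and mt-Ti (isoleucine; 10.8). Their genes are printed from GENCODE M21 as the tRNA reads, 5′ to 3′, with no part in capitals, to show how short the counted features are.
mt-Tw: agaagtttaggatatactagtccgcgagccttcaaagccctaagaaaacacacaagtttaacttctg
mt-Tp: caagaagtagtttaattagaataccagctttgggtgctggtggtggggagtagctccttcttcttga
mt-Tq: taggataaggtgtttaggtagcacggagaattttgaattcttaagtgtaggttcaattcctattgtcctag
mt-Ti: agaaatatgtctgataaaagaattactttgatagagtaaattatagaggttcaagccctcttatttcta
Of 14 tRNA genes on the plus strand of the file's coordinates, which also carries 12 of the mRNAs, 9 had no count. Of 8 on the minus strand 1, mt-Tn, had none. This split rests partly on counts near 0: mt-Ts1, mt-Ty, mt-Tc, mt-Ta and mt-Te, on the minus strand, had means of 0.25 to 4.67. On the plus strand mt-Td, mt-Tk, mt-Tg and mt-Tr, all at 0, lie between genes with copies in the chromosome 1 block, as does mt-Ts1. Whether this bears on the split was not tested. mt-Tq (MT:3772-3842) overlaps the end of mt-Ti (MT:3706-3774), which itself overlaps the end of mt-Nd1 (MT:2751-3707), and mt-Tw (MT:4950-5016) overlaps the end of mt-Nd2 (MT:3914-4951), so counts at these edges are uncertain. mt-Tp lies at MT:15356-15422.

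Mitochondrial genes took 2.69% to 3.95% of a library, nearly all from mRNA, and mt-Co1 ranked 1 to 3 among all genes in each library. With control siRNA in 0.3% FBS the share was 3.00%, 3.15% and 3.50% in replicates 1 to 3, and in 15% FBS 2.69%, 2.88% and 3.20%. With Lap2 siRNA it was 3.95%, 3.35% and 3.24% in 0.3% FBS and 3.82%, 3.76% and 3.56% in 15% FBS. The groups overlapped in 0.3% FBS, where the means were 3.22% ± 0.26 (SD, n = 3) with control and 3.51% ± 0.38 with Lap2 siRNA (3.30% without replicate 1). In 15% FBS they did not overlap: the means were 2.92% ± 0.26 and 3.71% ± 0.13, and each Lap2 siRNA library lay above each control library. The rRNA share moved the same way, from 0.102%, 0.104% and 0.112% with control siRNA in 15% FBS to 0.129%, 0.130% and 0.132% with Lap2 siRNA. These shares are descriptions without a test. In bulk RNA a higher share from more mitochondrial RNA per cell and one from less nuclear-encoded RNA per cell cannot be told apart.

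**Figure D2:**
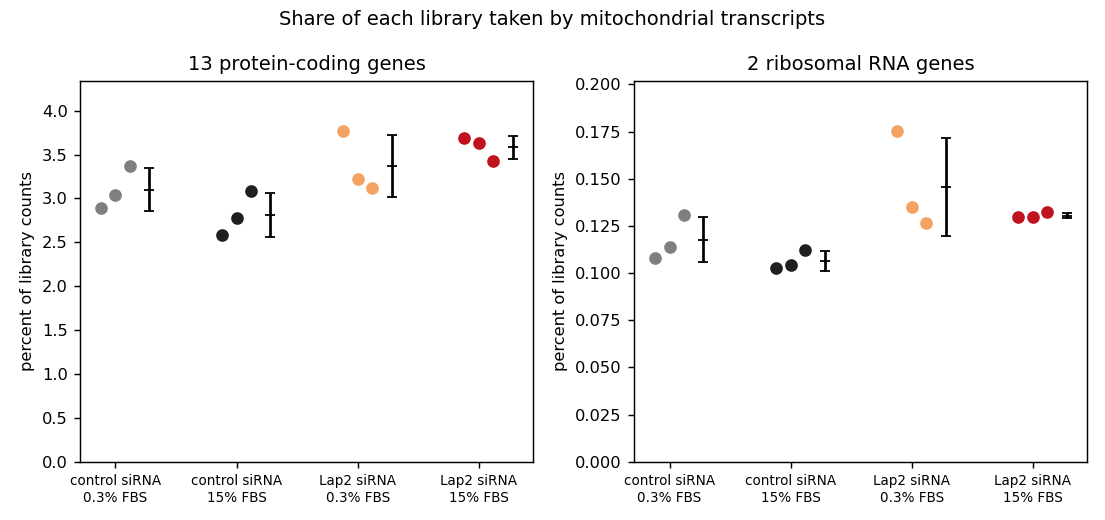
Percent of library counts on the 13 mitochondrial protein-coding genes (left) and the 2 rRNA genes (right), 1 point per library in order of replicate, with the mean ± SD of 3 libraries beside each group. In 15% FBS all 3 Lap2 siRNA libraries lie above all 3 control libraries, and Lap2 siRNA replicate 1 in 0.3% FBS is the highest point on both axes.

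Between siRNAs in 15% FBS, mitochondrial mRNAs were higher with Lap2 siRNA. Of the 37 genes 23 had enough counts for the test (12 mRNAs without mt-Nd4l, 2 rRNAs and 9 tRNAs), and 8 of these, all mRNAs, rose and none fell at an adjusted p under 0.05, where 11.4% of all 18668 genes tested rose and 12.1% fell. The p-values are from edgeR's quasi-likelihood test with TMM scaling and were adjusted over all genes by the Benjamini-Hochberg method. The median log2 fold change (log2FC) of the 12 mRNAs was 0.32, against 0.017 for all genes tested. Among complex I subunits, mt-Nd1 was counted at 66801, 72488 and 81379 TMM-scaled counts with control siRNA and at 95989, 92156 and 91309 with Lap2 siRNA. The 2 groups did not overlap, and the log2FC was 0.34 ± 0.075 (SE), with an adjusted p of 0.000778. For mt-Nd5, another complex I subunit, the counts were 74438, 83271 and 87328 with control and 107831, 107392 and 92157 with Lap2 siRNA, again without overlap (log2FC 0.33 ± 0.068, adjusted p 0.000376). The other calls were mt-Nd2 (0.34), mt-Atp8 (0.32), mt-Cytb (0.26), mt-Nd4 (0.25), mt-Co2 (0.39) and mt-Atp6 (0.49), of which the last pair rests on few reads in shared sequence. In the edgeR fits that left out 1 library, mt-Co2 lost its call in 5 (adjusted p up to 0.31) and mt-Atp6 in 7 (up to 0.32).

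The most abundant transcript was an exception in size. In the same comparison mt-Co1, the catalytic subunit of complex IV, was counted at 240940, 255263 and 289936 with control and at 311181, 299422 and 286868 with Lap2 siRNA. These groups overlapped, and the log2FC of 0.19 ± 0.073 had an adjusted p of 0.0545 and a 95% interval of 0.043 to 0.34. The light-strand mRNA mt-Nd6 had a log2FC of 0.067 (interval -0.14 to 0.28). Leaving out control siRNA replicate 1 in 15% FBS, the library with the lowest mitochondrial share, brought the 8 calls down to 4 (mt-Nd1, mt-Nd2, mt-Atp8 and mt-Nd5 kept theirs), and no other library moved the number by more than 1.5 times. Scaling to total counts gave 12 higher, where 3471 of all 18668 genes rose and 1678 fell. DESeq2 gave 6, where 2030 rose and 2374 fell. No mitochondrial gene fell in either.

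In 0.3% FBS the same siRNA contrast was limited to fewer genes. Of the 23 tested, 3 rose with Lap2 siRNA and none fell, against 17.8% and 18.6% of all genes, so the share was no larger than the background. mt-Nd1 was counted at 61552, 63214 and 71292 with control and at 90844, 74501 and 72451 with Lap2 siRNA. Its groups did not overlap, and its log2FC was 0.28 ± 0.075 with an adjusted p of 0.00331, below 0.05 in each leave-one-out fit. mt-Nd6 was counted at 1345, 1125 and 1170 with control and at 1791, 1427 and 1363 with Lap2 siRNA (log2FC 0.33 ± 0.10, adjusted p 0.0102). The third call was mt-Tp, at 24.5, 28.6 and 21.6 scaled counts with control and 60.6, 50.97 and 33.0 with Lap2 siRNA (log2FC 0.95 ± 0.30, adjusted p 0.0128).

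Other abundant mRNAs differed little between siRNAs in 0.3% FBS. The log2FC was 0.026 for mt-Cytb (95% interval -0.13 to 0.18), 0.026 for mt-Nd5 (-0.11 to 0.16) and -0.048 for mt-Nd4 (-0.19 to 0.093). For mt-Co1 the counts were 225921, 247911 and 273886 with control and 254329, 217848 and 211863 with Lap2 siRNA, overlapping groups with a log2FC of -0.13 ± 0.073 (adjusted p 0.179). Lap2 siRNA replicate 1 decided much of this. Without it 1 mitochondrial gene, mt-Nd1, was called higher and 1, mt-Co1, lower, at a log2FC of -0.20 and an adjusted p of 0.00567. Without control siRNA replicate 3 in 0.3% FBS, 8 genes were called higher, and 7 and 6 without Lap2 siRNA replicates 2 and 3.

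**Figure D3:**
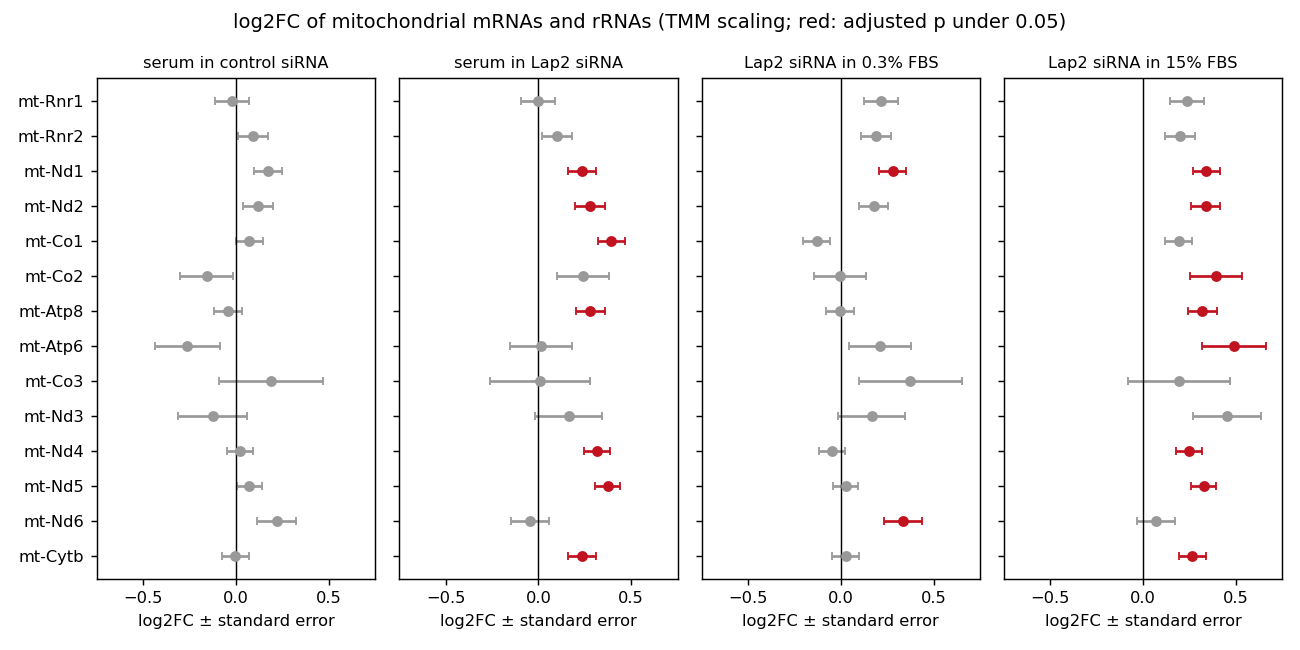
log2FC with its standard error (horizontal axis) of the 12 tested mRNAs and 2 rRNAs in 4 contrasts, with genes in chromosomal order; red points had an adjusted p under 0.05. In Lap2 siRNA in 15% FBS all 14 points lie above 0 and 8 are red, and in the serum contrast with control siRNA none is red. Values are under TMM scaling; scaled to total counts, 6 of these genes fell after serum with control siRNA, and mt-Rnr1 and mt-Nd6 with Lap2 siRNA.

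Serum for 45 min left the mitochondrial genes of control siRNA cells without a call under TMM scaling: of 23 tested, 0 rose and 0 fell by edgeR, against 15.6% and 13.9% of all genes. At an unadjusted p under 0.05 there were 2, mt-Nd1 and mt-Nd6, both higher, and DESeq2 also gave 0. mt-Co1 had a log2FC of 0.072 with a 95% interval of -0.076 to 0.22, mt-Nd5 of 0.072 (-0.066 to 0.21), and mt-Nd4 of 0.020 (-0.12 to 0.16).

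With Lap2 siRNA, 7 mitochondrial genes rose and 0 fell after serum under TMM scaling, against 18.3% and 14.9% of all genes, whereas 0 rose and 4 fell when scaled to total counts. All 7 were mRNAs. Without Lap2 siRNA replicate 2 or 3 in 0.3% FBS, or replicate 1 in 15% FBS, 4 rose. mt-Co1 rose from 254329, 217848 and 211863 scaled counts in 0.3% FBS to 311181, 299422 and 286868 in 15% FBS, without overlap (log2FC 0.39 ± 0.073, adjusted p 5.37e-05). mt-Nd5 rose from 83027, 77424 and 76926 to 107831, 107392 and 92157 (log2FC 0.37 ± 0.068, adjusted p 3.94e-05). The others were mt-Nd4 (0.32), mt-Atp8 (0.28), mt-Nd2 (0.28), mt-Cytb (0.24) and mt-Nd1 (0.23). Neither rRNA was called, with log2FC of -0.0037 for mt-Rnr1 (interval -0.19 to 0.18) and 0.10 for mt-Rnr2 (-0.066 to 0.27).

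Which way mitochondrial genes went after serum was a matter of scaling. With total counts as the library size, the median gene sat -0.21 (control) and -0.23 (Lap2 siRNA) in log2 from its place under TMM. In that fit 0 mitochondrial genes were called higher and 6 lower with control siRNA (8.74% and 31.3% of all genes), namely mt-Rnr1, mt-Co2, mt-Atp8, mt-Atp6, mt-Nd4 and mt-Cytb. With Lap2 siRNA 0 were called higher and 4 lower (8.88% and 31.9%), namely mt-Rnr1, mt-Ti, mt-Nd6 and mt-Tp. The log2FC of mt-Co1 after serum with Lap2 siRNA was then 0.16 (adjusted p 0.0693 by edgeR), and that of mt-Nd1 was 0.0023. Between siRNAs the shift was 0.11 in 0.3% FBS and 0.086 in 15% FBS, and no mitochondrial gene called under TMM changed direction. The split of all calls moved as well: 4692 genes were higher and 2638 lower with Lap2 siRNA in 0.3% FBS, and 3471 and 1678 in 15% FBS, against 3330 and 3480, and 2125 and 2250, under TMM.

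**Figure D4:**
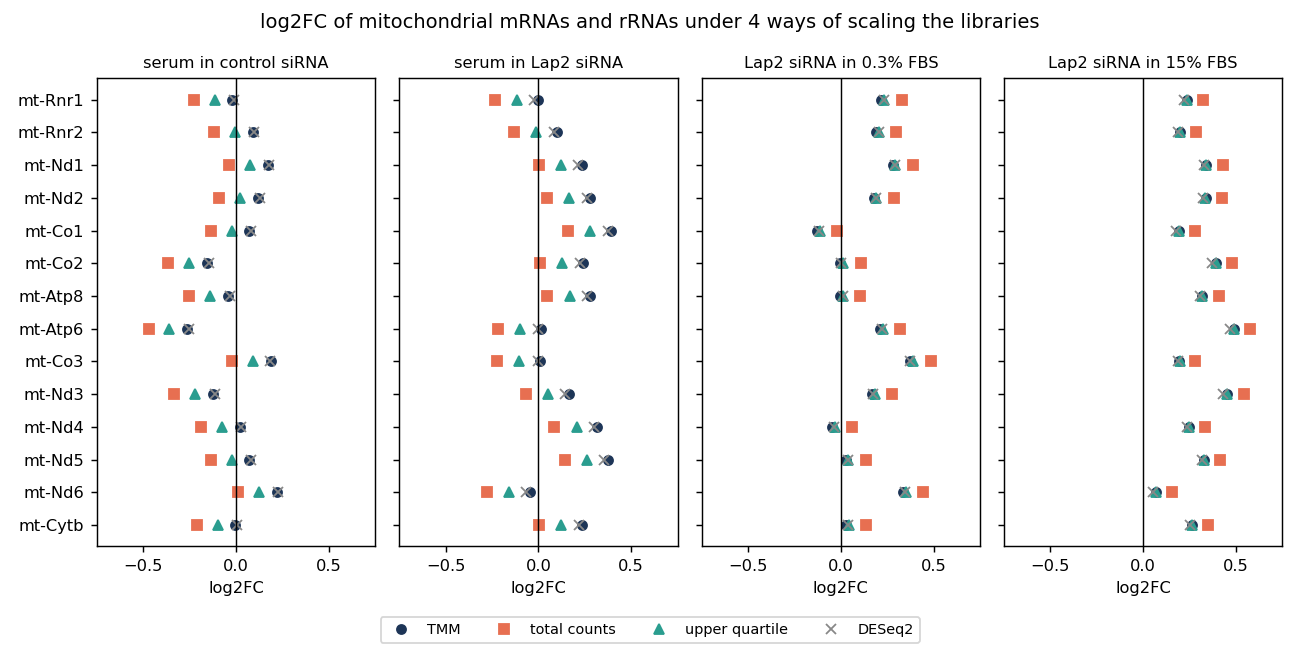
log2FC (horizontal axis) of 12 mitochondrial mRNAs and 2 rRNAs in 4 contrasts under TMM, total-count, upper-quartile and DESeq2 scaling. In the serum contrasts total-count values lie to the left of TMM values, on the other side of 0 for some genes, and in Lap2 siRNA in 15% FBS all values lie above 0 under each scaling.

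Whether the serum change differed between siRNAs was tested by the interaction term, and its few calls did not hold across settings. In this term, which is the log2FC after serum with Lap2 siRNA minus that with control siRNA, 4 of 23 genes were called higher and 0 lower, against 7.09% and 6.51% of all genes. These were mt-Atp8 (0.32), mt-Co1 (0.32), mt-Nd5 (0.30) and mt-Nd4 (0.30), with adjusted p from 0.0307 to 0.0440. mt-Cytb (0.24, adjusted p 0.142) and mt-Nd2 (0.16) did not pass, and the rRNAs were at 0.017 and 0.0091. DESeq2 called 1 gene, scaling to total counts 2, and upper-quartile scaling, scaling without the mitochondrial genes and edgeR's own expression filter called 0. The calls also rested on single libraries: none of the 4 was left without control siRNA replicate 3 in 0.3% FBS, replicate 1 or 2 in 15% FBS, Lap2 siRNA replicate 2 or 3 in 0.3% FBS, or Lap2 siRNA replicate 1 in 15% FBS, 1 call was left without control replicate 2 in 0.3% FBS or Lap2 siRNA replicate 2 in 15% FBS, and 7 genes were called without Lap2 siRNA replicate 1 in 0.3% FBS. Each of the 4 groups enters 2 of the contrasts above, so these contrasts are not independent of each other.

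The composition of the mitochondrial mRNA needs no scaling between libraries. In both serum states the shares of mt-Co1, mt-Nd1 and mt-Nd2 separated the siRNA groups. Those of mt-Nd4 and mt-Nd6 did so in 0.3% FBS only. All other mRNAs, among them mt-Cytb, mt-Nd5 and mt-Atp8, overlapped between siRNAs in both states. Shares add up to a whole, so differences between them are not independent of each other. mt-Co1 made up 38.5%, 40.2% and 40.0% of mitochondrial mRNA counts with control siRNA in 0.3% FBS and 40.0%, 39.3% and 39.8% in 15% FBS. With Lap2 siRNA it made up 35.8%, 36.1% and 36.1% in 0.3% FBS and 38.0%, 37.5% and 37.9% in 15% FBS, below each control library of the same serum state. mt-Nd1 took the opposite place, at 10.5%, 10.2% and 10.4% with control against 12.8%, 12.3% and 12.3% with Lap2 siRNA in 0.3% FBS, and at 11.1%, 11.2% and 11.2% against 11.7%, 11.6% and 12.1% in 15% FBS. The share of mt-Nd2 was also higher with Lap2 siRNA in both states, without overlap, with means of 10.7% and 12.0% in 0.3% FBS and 11.1% and 11.7% in 15% FBS. Each of these 6 differences had a two-sided exact permutation p of 0.1, the smallest that 3 against 3 libraries allow, so the design cannot reach 0.05 for them one by one. As ratios of counts, mt-Nd1 to mt-Co1 was 0.263 ± 0.0090 (SD, n = 3) with control and 0.347 ± 0.0088 with Lap2 siRNA in 0.3% FBS, and 0.281 ± 0.0034 and 0.312 ± 0.0059 in 15% FBS.

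**Figure D5:**
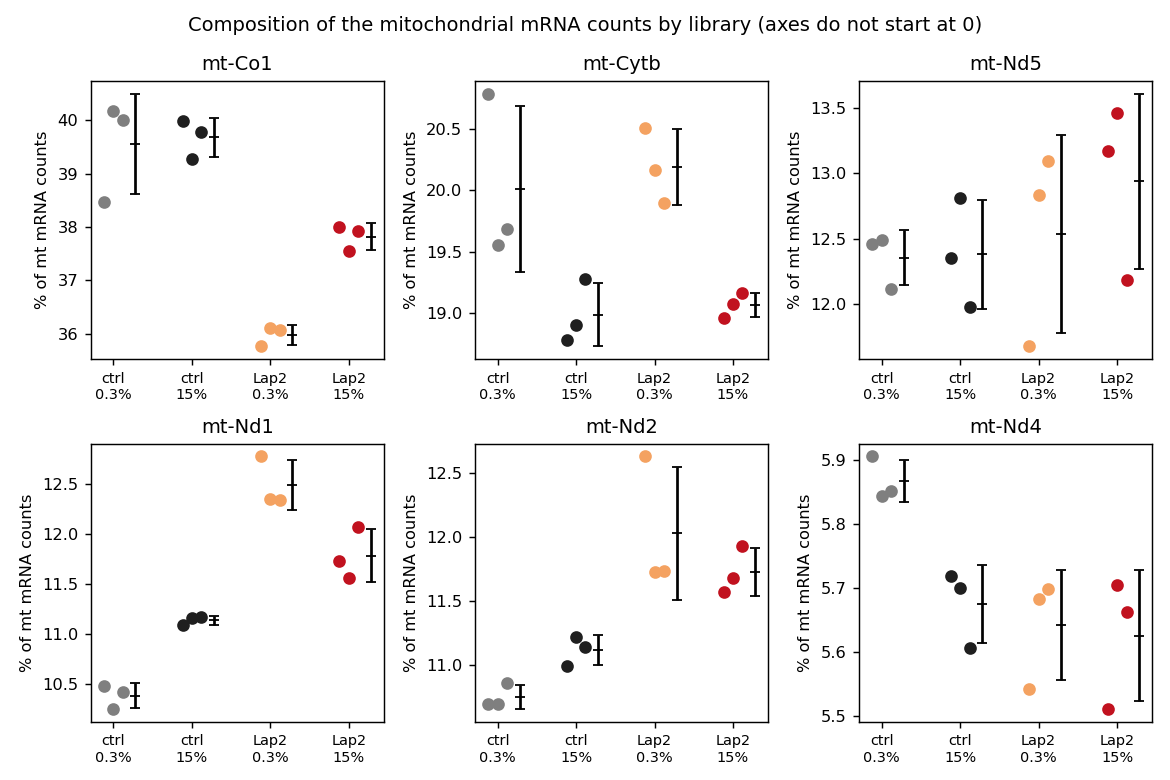
Percent of mitochondrial mRNA counts taken by the 6 most abundant mRNAs (vertical axes, which do not start at 0), 1 point per library, with the mean ± SD of 3 libraries per group. Lap2 siRNA libraries lie below control libraries of the same serum state for mt-Co1 and above them for mt-Nd1 and mt-Nd2, and mt-Cytb is lower in 15% than in 0.3% FBS.

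Some shares also differed between the serum states. The mt-Nd1 share went up with control and down with Lap2 siRNA, and the mt-Co1 share went up with Lap2 siRNA, in the values above without overlap (exact permutation p 0.1 for each). The share of mt-Cytb was lower in 15% than in 0.3% FBS in both siRNA arms, going from a mean of 20.0% ± 0.68 to 19.0% ± 0.26 with control and from 20.2% ± 0.31 to 19.1% ± 0.10 with Lap2 siRNA, without overlap in either (exact permutation p 0.1 for each). None of these changes in mt-Nd1, mt-Co1 and mt-Cytb was called by edgeR when the fit was scaled to mitochondrial mRNA, as described next. Their adjusted p there ran from 0.566 to 0.704. That fit draws the spread of a gene partly from all genes, whose counts then carry the differences in mitochondrial share between libraries. For mt-Co1 after serum with Lap2 siRNA the SE was 0.098 in it, against 0.073 under TMM. Lack of a call there thus does not show that a share stayed the same. mt-Nd5 overlapped in all 4 contrasts, with group means from 12.4% to 12.9%. mt-Nd6 was at 0.252%, 0.237% and 0.232% with Lap2 siRNA in 0.3% FBS, above the 0.171% to 0.229% of its control libraries, and at 0.186%, 0.171% and 0.205% in 15% FBS.

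Scaling the whole fit to the summed mitochondrial mRNA counts asked which of these relative differences passed the test across all genes. In this fit 3 mitochondrial genes were called with Lap2 siRNA in 0.3% FBS (25.9% of all genes called in either direction, 11.9% higher), all higher: mt-Nd1 (log2FC 0.27, adjusted p 0.0483), mt-Tq (1.19, 0.0120) and mt-Tp (0.92, 0.0140). The call of mt-Tq rests on few counts, 5, 6 and 35 with control and 59, 20 and 29 with Lap2 siRNA, and these groups overlapped. mt-Co1 had a log2FC of -0.14 and an adjusted p of 0.344. After serum with Lap2 siRNA 6 were called, all lower (36.7% in either direction, 31.2% lower): mt-Rnr1 (-0.31), mt-Nd6 (-0.36), mt-Tw (-0.54), mt-Tp (-0.99), mt-Tq (-1.21) and mt-Ti (-1.36). By edgeR in this scaling 0 of 23 were called after serum with control siRNA (20.2%; 1 at an unadjusted p under 0.05), for Lap2 siRNA in 15% FBS (23.2%; 0) and in the interaction (10.2%; 2). DESeq2 was not run in this scaling. Without Lap2 siRNA replicate 1 in 0.3% FBS, 1 gene (mt-Nd1) was left of the 3 and 2 (mt-Nd6 and mt-Tp) of the 6. Among the other leave-one-out fits, mt-Nd1 kept its call only without control siRNA replicate 1 or 3 in 15% FBS. The 3 also became 1 without Lap2 siRNA replicate 2 in 0.3% FBS (mt-Tq) or control replicate 2 in 0.3% FBS (mt-Tp). Without control replicate 1 in 0.3% FBS only mt-Tp of the 3 was left, with mt-Nd6 added. Without control replicate 3 in 0.3% FBS only mt-Tq was left, with mt-Co3 added. Of the 6, 3 were left without Lap2 siRNA replicate 2 in 0.3% FBS (mt-Ti, mt-Tq and mt-Tp). Without Lap2 siRNA replicate 1 in 15% FBS 2 were left (mt-Tq and mt-Tp). Without replicate 2 in 15% FBS only mt-Ti of the 6 was left, and mt-Atp6 was called lower in addition.

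The 6 genes lie on both strands. Lap2 siRNA replicate 1 in 0.3% FBS had the highest summed tRNA count of all libraries: mt-Tq had 59, 20 and 29 counts and mt-Ti 37, 11 and 8 in Lap2 siRNA replicates 1 to 3 in 0.3% FBS, and mt-Tq 15, 9 and 29 and mt-Ti 7, 11 and 6 in 15% FBS. The groups overlapped for both. Under TMM scaling none of the 9 tested tRNAs was called after serum with Lap2 siRNA, and mt-Tp had a log2FC of -0.69 ± 0.30 (adjusted p 0.0764). The ratio of mt-Nd5 to mt-Nd6 counts, a heavy-strand and a light-strand mRNA that meet at their ends, was 64.6 ± 8.9 and 59.8 ± 14.8 with control siRNA in 0.3% and 15% FBS and 52.3 ± 5.3 and 69.7 ± 9.8 with Lap2 siRNA.

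Both rRNAs stood above 0 between siRNAs without passing the test under TMM scaling. With Lap2 siRNA the log2FC of mt-Rnr1 was 0.22 in 0.3% FBS (adjusted p 0.0623) and 0.23 in 15% FBS (0.0630), and that of mt-Rnr2 was 0.19 (0.0679) and 0.20 (0.0772). mt-Rnr2 was counted at 17908, 18360 and 19043 with control siRNA in 15% FBS and at 21145, 21130 and 21222 with Lap2 siRNA, which did not overlap. In 0.3% FBS the counts were 15819, 16815 and 19303 against 23780, 18179 and 17281, with overlap. Apart from Lap2 siRNA replicate 1 (23780), the Lap2 siRNA libraries lay within the control range. In fits that left out 1 library, the log2FC in 0.3% FBS ran from 0.072 to 0.33 for mt-Rnr1 and from 0.051 to 0.29 for mt-Rnr2. In 15% FBS it ran from 0.16 to 0.35 and from 0.17 to 0.23. The adjusted p of edgeR fell on both sides of 0.05 in each case. Scaled to total counts, edgeR called both rRNAs higher with Lap2 siRNA in each serum state, so the lack of a call depends on scaling as well as on single libraries. The ratio of mt-Rnr2 to mt-Rnr1 lay between 2.54 and 3.03 in all libraries.

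Nuclear genes that act on mitochondrial RNA were compared on lists, whose counts are to be read against all genes called in the same fit. Under TMM these were 17.8% higher and 18.6% lower with Lap2 siRNA in 0.3% FBS and 11.4% and 12.1% in 15% FBS. After serum they were 15.6% and 13.9% with control and 18.3% and 14.9% with Lap2 siRNA. With total counts 4692 of 18668 genes were higher and 2638 lower with Lap2 siRNA in 0.3% FBS, and 3471 and 1678 in 15% FBS. In the same scaling 8.74% were higher and 31.3% lower after serum with control, and 8.88% and 31.9% with Lap2 siRNA. Of 20 genes for transcription and maintenance of mitochondrial DNA, 9 rose and 1 fell with Lap2 siRNA in 0.3% FBS and 4 rose and 0 fell in 15% FBS (8 and 0 with total counts), with median log2FC of 0.22 and 0.16, against 0.010 and 0.017 for all genes. Polrmt, the mitochondrial RNA polymerase, had mean scaled counts of 849 ± 87.1 and 1153 ± 9.1 in 0.3% FBS (log2FC 0.44 ± 0.078, adjusted p 2.38e-05) and 485 ± 29.2 and 616 ± 14.6 in 15% FBS (0.35 ± 0.084, 0.00222). Tfam, which packs mitochondrial DNA and starts its transcription, rose by similar amounts (0.33 and 0.39). Tfb2m, the initiation factor, was at -0.0019 and 0.14 and was not called. After serum 2 members rose and 9 fell with control and 1 rose and 12 fell with Lap2 siRNA. Polrmt fell by 0.81 and by 0.90 on the log2 scale, Tfam by 0.45 and 0.38, and Twnk, the helicase of mitochondrial DNA replication, by 1.06 and 1.24, in control and Lap2 siRNA cells. Falls outnumbered rises in this list after serum under TMM and under each of the other scalings of nuclear genes.

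Of 24 genes for processing and decay of mitochondrial RNA, 13 rose and 1 fell with Lap2 siRNA in 0.3% FBS, where 17.8% of all genes rose and 18.6% fell, and 12 rose and 1 fell in 15% FBS, where 11.4% rose and 12.1% fell. Lrpprc, which stabilises mitochondrial mRNAs together with Slirp, had means of 1946 ± 86.3 and 3337 ± 187 in 0.3% FBS (log2FC 0.78 ± 0.069, adjusted p 4.71e-11) and 2219 ± 111 and 2796 ± 230 in 15% FBS (0.33 ± 0.069, 0.00037). Slirp passed in 15% FBS (0.47 ± 0.12, adjusted p 0.00309) and not in 0.3% FBS (0.13, 0.411), and its interaction term was not called (0.33, adjusted p 0.204). The interaction term of Lrpprc was called, at -0.44 (adjusted p 0.00144). After serum 7 members rose and 3 fell with control and 5 rose and 6 fell with Lap2 siRNA, a split that turned to 4 and 12, and 1 and 12, when scaled to total counts.

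Among 77 tested mitochondrial ribosomal protein genes, 28 rose and 3 fell with Lap2 siRNA in 0.3% FBS (17.8% and 18.6% of all genes) and 27 rose and 1 fell in 15% FBS (11.4% and 12.1%), with Mrps6 at 0.64 and 0.42. With total counts 47 rose and 1 fell in each state. In that fit 4692 of all 18668 genes rose and 2638 fell in 0.3% FBS, and 3471 and 1678 in 15% FBS. After serum 2 rose and 18 fell with control (15.6% and 13.9% of all genes) and 1 rose and 19 fell with Lap2 siRNA (18.3% and 14.9%). With total counts 53 fell in each, where 31.3% (control) and 31.9% (Lap2 siRNA) of all genes fell. Of the 17 mitochondrial aminoacyl-tRNA synthetases, which charge these tRNAs, 6 rose and 1 fell with Lap2 siRNA in 0.3% FBS and 3 rose and 1 fell in 15% FBS, beside the same shares of all genes (9 and 1, and 5 and 1, with total counts). Serum was followed by 1 rise and 7 falls with control and 2 rises and 7 falls with Lap2 siRNA, led by Pars2, the synthetase for proline, at -2.06 and -1.84.

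The nuclear subunits of the respiratory complexes are read against the same shares of all genes. With Lap2 siRNA in 0.3% and 15% FBS, 7 rose and 5 fell and 4 rose and 1 fell of 36 complex I subunits, and 14 rose and 2 fell and 14 rose and 0 fell when scaled to total counts. Of 4 complex II subunits, a complex with no mitochondrial gene, 0 rose and 1 fell and 1 rose and 0 fell (1 rose and 0 fell in 0.3% FBS when scaled to total counts). Of 9 complex III subunits 4 rose and 0 fell in each state, among them Uqcrc1 (0.29 and 0.34), and 7 rose and 0 fell in each when scaled to total counts. Of 11 complex IV subunits 2 rose and 1 fell in 0.3% FBS, and 0 were called in 15% FBS by edgeR or DESeq2 (2 at an unadjusted p under 0.05 by edgeR), while scaling to total counts gave 4 higher. Of 15 complex V subunits 3 rose and 4 fell and 1 rose and 3 fell, a split that turned to 5 and 4, and 6 and 2, when scaled to total counts. In the catalytic core of the ATP synthase, Atp5b was at 18962 ± 346 with control and 7864 ± 375 with Lap2 siRNA in 0.3% FBS (log2FC -1.27 ± 0.058). In 15% FBS it was at 20292 ± 220 and 10025 ± 189 (-1.02 ± 0.058), and Atp5a1 was at -0.64 and -0.49. The mitochondrially encoded subunits lie outside that core. In 0.3% FBS mt-Atp8 had a log2FC of -0.0042 and mt-Atp6 of 0.21, neither called by edgeR (adjusted p 0.983 and 0.361). Both were called higher in 15% FBS, where the call of mt-Atp6 was lost in 7 fits that left out 1 library. After serum 0 complex I subunits rose and 3 fell with either siRNA under TMM scaling. In control and Lap2 siRNA cells 15 and 10 fell under upper-quartile scaling, where 3878 and 3942 of all 18668 genes fell. With total counts 31 and 27 fell, where 31.3% and 31.9% of all genes fell.

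Of 10 regulators of mitochondrial biogenesis, 4 rose and 2 fell with Lap2 siRNA in 0.3% FBS (17.8% and 18.6% of all genes) and 3 rose and 0 fell in 15% FBS (11.4% and 12.1%), and 3 rose and 2 fell after serum with each siRNA (2 and 4 with control and 0 and 4 with Lap2 siRNA when scaled to total counts). Pprc1, a coactivator of the same family as PGC-1, was at 0.58 and 0.28 between siRNAs. Ppargc1a, which encodes PGC-1α, had only 4.6 ± 2.1 and 26.0 ± 11.1 scaled counts in 0.3% FBS (log2FC 2.49 ± 0.48, adjusted p 8.1e-05) and 5.7 ± 1.1 and 17.2 ± 1.1 in 15% FBS (1.59 ± 0.49, 0.0158), so its level was low in every group.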

How the data were processed

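Total RNA of 12 libraries (4 groups, 3 replicates each) was sequenced after ribosomal RNA depletion with a strand-marking kit. The authors deposited whole-number read counts per gene, not normalised, 1 file per library, on mouse build mm10. The submitters' processing notes name TopHat2, HTSeq and DESeq2; TopHat2 was run with default settings, and versions, read length and the strand and multi-mapping settings of the counting are not given in the sources used here. All 37 MT genes stood at the same coordinates in GENCODE M21.

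A gene entered the fit (18668 did) when 3 or more libraries had over 1 count for it. Genes were fitted with 4 group means over 12 libraries by edgeR 4.0.16 (R 4.3.3; TMM, quasi-likelihood test), p-values were adjusted by Benjamini-Hochberg over all genes, and calls used 0.05. Levels per length are CPM (counts scaled to 1000000 per library) per kilobase of gene. Shared sequence was counted as exact 50- and 75-base windows and by blastn 2.17.0, in annotated nuclear transcripts only. Composition was compared by exact permutation tests (scipy 1.17.1). DESeq2 1.42.0 and other scalings, filters, samples and a replicate block were alternatives. On counts simulated for Lap2 siRNA in 15% FBS over 18668 genes, 59.5% of 200 genes changed by 1 in log2 were recovered, and 11 unchanged genes were called. These genes were drawn at random over all levels, and the change was larger than any of the mitochondrial mRNAs. The recovery therefore does not describe changes of the size reported for them. Library totals of 18026298 to 26265253 make counting error small for the abundant mRNAs and large for tRNAs.

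Named genes were all mitochondrial mRNAs and rRNAs, tRNAs with a mean of at least 10 counts, Tmpo, of each nuclear list the 2 members with the smallest p in each direction among those called in a contrast, and Polrmt, Tfam, Tfb2m, Twnk, Lrpprc, Slirp and Ppargc1a. Members and lists were chosen with earlier results of these data known. 1 list of cell type markers is not reported here.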

Additional observations from a re-analysis of the deposited data

Results flagged for a closer look

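The interaction term of edgeR's quasi-likelihood fit, the test of a different serum change between the 2 siRNAs, was called for 4 mitochondrial mRNAs. The difference in log2FC, Lap2 siRNA minus control siRNA, was 0.32 for mt-Co1, 0.32 for mt-Atp8, 0.30 for mt-Nd4 and 0.30 for mt-Nd5. DESeq2 called 1 mitochondrial gene in this term, upper-quartile scaling, scaling without mitochondrial genes and edgeR's own expression filter called 0, and 0 were called in 6 of the 12 fits that left out 1 library.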

How the results depend on the processing

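Numbers of mitochondrial genes called are given as higher unless said otherwise. For serum with control siRNA, 0 became 2 with every gene with any count, 2 with only the compared groups fitted and 1 with the replicate block, and 6 were lower when scaled to total counts. For serum with Lap2 siRNA, 7 became 0 with total counts, 3 with upper-quartile scaling and 0 when scaled to mitochondrial mRNA, with 4, 1 and 6 lower and 1 lower with any count. For Lap2 siRNA in 0.3% FBS, 3 became 6 with total counts, 5 when mitochondrial genes were left out of the scaling, 7 with any count and 5 with the replicate block. For Lap2 siRNA in 15% FBS, 8 became 0 when scaled to mitochondrial mRNA. The interaction's 4 became 1 with DESeq2, 2 with total counts and 0 with upper-quartile scaling, without mitochondrial genes in the scaling, with mitochondrial mRNA scaling or with edgeR's own expression filter. The cause was not tested, except that scaling to mitochondrial mRNA removes a shared change of those mRNAs by construction. As a percent of the TMM-scaled library size the mitochondrial share was 3.25% with control and 3.89% with Lap2 siRNA in 15% FBS.

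Scaled to mitochondrial mRNA, the log2FC after serum with Lap2 siRNA changed sign for mt-Nd1 (-0.084), mt-Nd2 (-0.037), mt-Atp8 (-0.049), mt-Nd4 (-0.0040) and mt-Cytb (-0.083), as did mt-Nd4 for Lap2 siRNA in 15% FBS (-0.013). Scaled to total counts, mt-Nd4 after serum with control siRNA was at -0.19.

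Leaving out 1 library at a time gave 0 to 2 higher calls for serum with control siRNA, 4 to 9 higher and 0 to 2 lower for serum with Lap2 siRNA, 1 to 8 higher and 0 to 1 lower for Lap2 siRNA in 0.3% FBS, 4 to 12 higher for Lap2 siRNA in 15% FBS, and 0 to 7 higher and 0 to 1 lower for the interaction. Scaled to mitochondrial mRNA, a set of fits added after seeing the data, it gave 2 to 6 lower for serum with Lap2 siRNA, 1 to 4 higher for Lap2 siRNA in 0.3% FBS, 0 to 1 lower in 15% FBS and 0 to 2 lower for the interaction. In the TMM fits no gene was lower after serum in control cells, nor in Lap2 siRNA cells against control in 15% FBS. The log2FC of Tmpo ranged from -1.43 to -1.30 and from -2.23 to -2.08. Mean mitochondrial shares ranged over 3.08% to 3.33%, 2.79% to 3.04%, 3.30% to 3.65% and 3.66% to 3.79% in the order control 0.3%, control 15%, Lap2 siRNA 0.3% and 15% FBS.

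Replicate numbers did not pair the libraries: over 18 same-numbered pairs the correlation of deviations from group means ran from -0.122 to 0.0998. With the replicate block 1, 7, 5, 11 and 4 genes were higher in the 4 contrasts and the interaction. After seeing the data, the 5 mRNAs with over 90% shared windows were left out of the counting, which gave 0, 7, 3, 6 and 4. Upper-quartile scaling gave 2183 higher and 3878 lower genes after serum with control and 2383 and 3942 with Lap2 siRNA, against 2915 and 2597, and 3420 and 2777, under TMM.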
